A study of Mus musculus with 12 samples.

Results

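A set of 9 neuropeptide precursor genes was followed across punches of mouse brain: Cartpt, Cck, Tac1, Tac2, Nts, Gal, Adcyap1, Grp and Nmb. They were chosen by name, with earlier results of these data known, as 9 of the 54429 entries of the count table. All 9 were found there. The 12 libraries of total RNA form 4 groups of 3, all from C57BL/6 mice and all labelled cerebrum as tissue: BLA of males housed in groups, BLA of males socially isolated early in life, VTA of females housed in groups, and VTA of females socially isolated early in life. The labels give the punched regions only by these initials, the sex comes from the design text, and neither ages nor the number of animals per library are given. Region and sex change together, so any contrast of BLA with VTA is also one of males with females. Whether replicate libraries are separate animals is not stated, and the p-values cover only library-to-library spread, which may be technical. In bulk punches, fewer cells that make a peptide and less RNA per cell cannot be told apart.

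Neuropeptides are cut from larger precursors by convertases inside dense-core vesicles, are often amidated at their end, and act after release on G-protein-coupled receptors at some distance. They modulate fast transmission rather than carry it. In the midbrain, cholecystokinin and neurotensin are known as co-transmitters of dopamine neurons, and CART (the cocaine- and amphetamine-regulated transcript) is known from the Edinger-Westphal nucleus and the hypothalamus. In the amygdala, cholecystokinin is known from interneurons and projection neurons, and tachykinins and neurotensin from the neighbouring central nucleus.

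Total counts ran from 28278708 to 69276892 per library, and the 9 genes together took between 0.0158% and 0.0567% of them. Levels are given as CPM, in which counts are divided by the library total after TMM scaling over the 12 libraries. The gene of the dopamine transporter, Slc6a3, did not go below 229 CPM in VTA or above 1.09 CPM in BLA. The vesicular glutamate transporter gene Slc17a7, which marks basolateral amygdala neurons, did not go below 448 CPM in BLA, and its VTA levels were 23.8, 8.28 and 233 CPM in isolated libraries 1, 2 and 3 and at most 5.19 CPM in group-housed ones. Some libraries stood apart from their group. Loci that collect ribosomal RNA reads took 18.6% to 41.8% of the counts in isolated BLA library 3 and group-housed BLA libraries 1 and 2, against at most 1.57% elsewhere. The 10 choroid plexus markers summed to 844 and 5345 CPM in isolated VTA libraries 1 and 3 and to at most 444 CPM in the other VTA libraries. Of the serotonin neuron markers, Tph2 lay at 93.0 CPM in group-housed VTA library 3 and did not exceed 6.06 CPM in the others. Pmch, the hypothalamic melanin-concentrating hormone precursor, lay at 37.0 and 52.3 CPM in group-housed VTA libraries 1 and 2 and at most 4.62 CPM elsewhere.

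The promoters of Cartpt, Cck and Adcyap1 are shown because these were the 3 members at which BLA and VTA libraries did not overlap. Each is a RefSeq promoter (GRCm38.p6) from 250 bases before to 50 bases after the start site, on the gene's own strand. Cartpt lies at chr13:99900634-99900933 on the minus strand, Cck at chr9:121495645-121495944 on the minus strand and Adcyap1 at chr17:93198918-93199217 on the plus strand. Capitals mark 3 searched motifs on either strand: the cAMP response element TGACGTCA, its core TGACG (which reads CGTCA on the other strand and lies within the full element), and the TATA box TATAAA.
Cartpt: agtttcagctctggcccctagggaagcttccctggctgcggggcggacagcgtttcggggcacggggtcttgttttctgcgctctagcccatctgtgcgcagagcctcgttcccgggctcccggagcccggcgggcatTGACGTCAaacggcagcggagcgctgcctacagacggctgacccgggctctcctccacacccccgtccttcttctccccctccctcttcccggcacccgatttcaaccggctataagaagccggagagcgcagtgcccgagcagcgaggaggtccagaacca
Cck: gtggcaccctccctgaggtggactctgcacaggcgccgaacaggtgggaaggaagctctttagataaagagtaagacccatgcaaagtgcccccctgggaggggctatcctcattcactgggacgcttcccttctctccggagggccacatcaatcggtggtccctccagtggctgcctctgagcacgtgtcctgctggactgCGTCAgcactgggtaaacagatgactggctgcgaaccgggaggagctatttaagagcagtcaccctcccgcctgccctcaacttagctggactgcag
Adcyap1: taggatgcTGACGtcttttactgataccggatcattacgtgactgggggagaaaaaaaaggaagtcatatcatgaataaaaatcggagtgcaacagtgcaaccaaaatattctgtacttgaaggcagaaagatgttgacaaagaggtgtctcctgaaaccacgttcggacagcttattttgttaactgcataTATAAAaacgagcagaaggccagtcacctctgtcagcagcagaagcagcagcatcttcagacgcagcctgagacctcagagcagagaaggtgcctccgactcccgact
The full element was found in 1 of the 8 members searched, Cartpt, where it begins at position -112 from the start site, and in 1.79% of the 32851 promoters in the table. The core was found in 6 of the 8 (Cartpt, Cck, Tac1, Nts, Gal and Adcyap1), against 20.8% of all promoters. In Cck it begins at position -47, and in Gal at position 20, after the start site. The promoter of Grp was not searched. TATAAA was found in Adcyap1, in this promoter and not in the gene's other listed one, and in 13.6% of all promoters. A match describes letters in the window and is not a measured binding site.

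By edgeR, 5 of the 9 peptide genes differed between the regions and 0 with housing within a region. In the plot of levels by library, Cartpt and Adcyap1 were higher in VTA and Cck was higher in BLA, with no overlap. Gal was called higher in VTA and Nts higher in BLA with partly overlapping ranges. Of the 9 members, 5 were called between the regions at an adjusted p under 0.05 (edgeR, quasi-likelihood F test, adjusted by Benjamini-Hochberg over 25009 genes), against 47.7% of all genes. The groups of the 2 regions did not overlap at 3 members, against 27% of all genes. An unadjusted p under 0.05 was found at the same 5 members, against 53.5% of all genes, DESeq2 called 5 as well, against 49.7% (24.8% higher in BLA), and 2 of 9 log2 fold changes were above 0, against 48.5%. These shares of the members lie near those of all genes, apart from the last, and nothing is read from them about the peptide genes as a set. All 9 members passed the filter on low counts in every comparison.

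**Figure D1:**
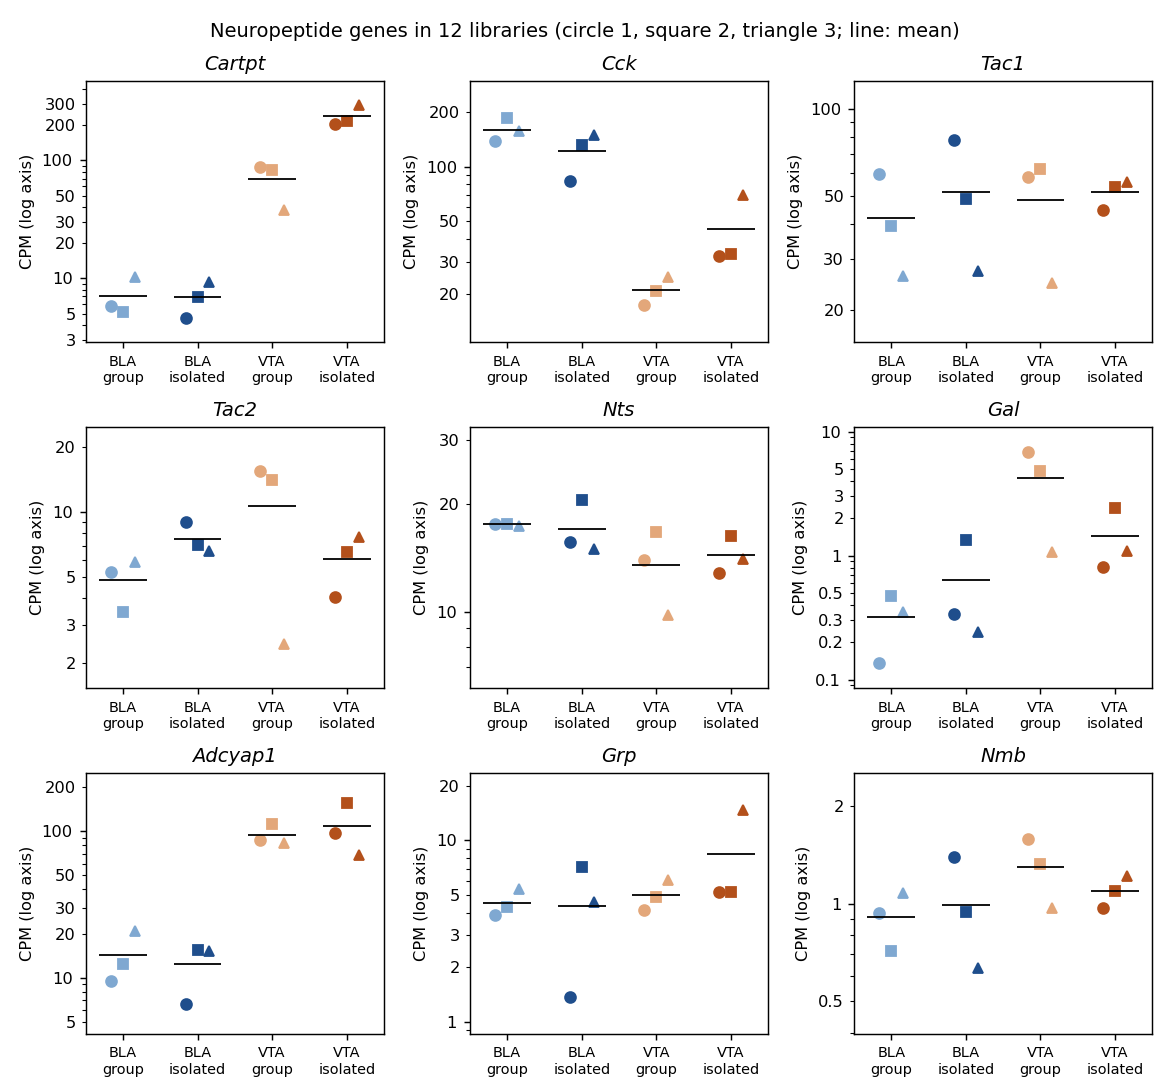
Level of each peptide gene in every library, as TMM-scaled CPM on a log axis, by region and housing (3 libraries per group, marker shape gives the library number, line gives the mean). Cartpt lies at 201 CPM or more in isolated VTA and at most 88.4 CPM in group-housed VTA, and the 3 libraries numbered 3 lie lowest for Tac1 in group-housed VTA and in both BLA groups.

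Compared per length of exon (RPKM, CPM per kilobase of the GENCODE M21 exon union), the leading peptide gene differed between the regions. In BLA it was Cck, at 107 ± 25.6 RPKM (SD, n = 6), followed by Nts at 13.8 ± 1.53, Tac1 at 13.7 ± 5.91, Cartpt at 5.46 ± 1.78, Tac2 at 4.50 ± 1.34, Adcyap1 at 3.54 ± 1.33, Grp at 3.01 ± 1.28, Nmb at 1.20 ± 0.344 and Gal at 0.611 ± 0.552 RPKM. Neighbours in this order differed by more than the larger SD between Cck and Nts, Tac1 and Cartpt, Grp and Nmb, and Nmb and Gal, and by less between the others. In VTA the order began with Cartpt at 119.7 ± 76.9 RPKM (SD, n = 6), Adcyap1 at 26.7 ± 8.18, Cck at 25.4 ± 14.6, Tac1 at 14.6 ± 3.98 and Nts at 11.2 ± 1.995, and ended with Tac2 at 6.10 ± 3.86, Grp at 4.54 ± 2.71, Gal at 3.59 ± 3.12 and Nmb at 1.51 ± 0.299 RPKM. Here neighbours differed by more than the larger SD between Cartpt and Adcyap1 and between Nts and Tac2, and by less elsewhere. By housing, Cartpt lay at 184.9 ± 39.2 RPKM in isolated and 54.4 ± 21.7 RPKM in group-housed VTA (SD, n = 3 each).

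Cartpt encodes the CART precursor and lies on chr13:99898489-99901091 (GRCm38, minus strand), with no overlapping gene in the annotation. In BLA its levels were 5.82, 5.13 and 10.2 CPM in group-housed libraries 1, 2 and 3 and 4.59, 6.89 and 9.25 CPM in isolated ones. In VTA they were 88.4, 82.4 and 37.8 CPM in group-housed libraries and 201, 214 and 293 CPM in isolated ones. Every VTA library lay above every BLA library, and within VTA every isolated library lay above every group-housed one. From the highest to the lowest mean, the groups were isolated VTA, group-housed VTA, group-housed BLA and isolated BLA, and the last 2 did not differ beyond their spread (7.05 ± 2.75 and 6.91 ± 2.33 CPM, SD, n = 3 each). The log2 fold change of BLA over VTA was -4.18 (SE 0.31), 18.1-fold, with an edgeR adjusted p = 6.01e-06. Among group-housed libraries alone it was -3.25 (edgeR adjusted p = 0.00265).

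Cck encodes cholecystokinin (chr9:121489824-121495694, minus strand) and had the opposite pattern to Cartpt between the regions. BLA held 138, 184 and 157 CPM in group-housed libraries 1, 2 and 3 and 83.1, 131 and 149 CPM in isolated ones. VTA held 17.5, 20.7 and 24.9 CPM in group-housed libraries and 32.5, 33.2 and 70.0 CPM in isolated ones. The lowest BLA library thus exceeded the highest VTA library, and every isolated VTA library lay above every group-housed one. The log2 fold change of BLA over VTA was 2.18 (SE 0.24), 4.54-fold, with an edgeR adjusted p = 5.51e-05, and 2.93 among group-housed libraries alone.

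Adcyap1 encodes PACAP, a peptide of the secretin family that raises cyclic AMP, and lies on chr17:93199017-93206537. It lay at 6.63 to 20.9 CPM over the 6 BLA libraries (median 13.9) and at 69.2 to 157 CPM over the 6 VTA libraries (median 92.3). The regions did not overlap, with a log2 fold change of -2.90 (SE 0.32) and an edgeR adjusted p = 7.52e-05. Gal encodes galanin (chr19:3409915-3414544) and was low in BLA, at 0.137 to 1.34 CPM (5 to 82 counts), against 0.815 to 6.82 CPM in VTA. Isolated BLA library 2 lay within the VTA range. The log2 fold change of Gal was -2.44 (SE 0.60, edgeR adjusted p = 0.00679), and the call was lost without the 3 BLA libraries rich in ribosomal RNA reads (-2.22, adjusted p = 0.0967). Among group-housed libraries alone Gal was at -3.78 (edgeR adjusted p = 0.00777).

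Nts, the neurotensin precursor (chr10:102481756-102490486), varied least among the 9 within BLA, with an SD of log2 CPM of 0.16, and lay just above Nmb within VTA, at 0.28 against 0.27. It lay at 14.99 to 20.4 CPM in BLA and 9.83 to 16.6 CPM in VTA, and the ranges overlapped. Its log2 fold change was 0.32 (SE 0.12, edgeR adjusted p = 0.039), and leaving out any of 8 of the 12 libraries ended the call, with values from 0.23 to 0.34 (edgeR adjusted p from 0.0539 to 0.119). These were isolated BLA library 2, group-housed BLA libraries 1, 2 and 3, isolated VTA libraries 1 and 3 and group-housed VTA libraries 1 and 3. The call was also lost with upper-quartile factors (0.26, edgeR adjusted p = 0.109), without the 3 BLA libraries rich in ribosomal RNA reads (0.31, adjusted p = 0.204) and among group-housed libraries alone (0.39, adjusted p = 0.0947).

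The other members did not pass between the regions. Tac1, the precursor of substance P and neurokinin A (chr6:7554879-7565834), had a log2 fold change of -0.09 with a 95% interval from -0.85 to 0.67. Tac2, the neurokinin B precursor (chr10:127724478-127731768), had -0.39 (-1.30 to 0.51), and among the alternatives tried it was called only without group-housed VTA library 3, at -0.63 (edgeR adjusted p = 0.00747). Among group-housed libraries alone Tac2 was at -1.10 (edgeR adjusted p = 0.275). The bombesin-like peptide genes Grp, for gastrin-releasing peptide (chr18:65872820-65886596), and Nmb, for neuromedin B (chr7:80902227-80905076), had -0.53 (-1.42 to 0.37) and -0.29 (-0.77 to 0.19). The intervals are not adjusted for multiple tests, and those of Tac2 and Grp leave room for differences above 2-fold. An exon of Nmb overlaps one of Sec11a on the same strand, so reads could be shared between the 2 genes and the values of Nmb are uncertain.

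**Figure D2:**
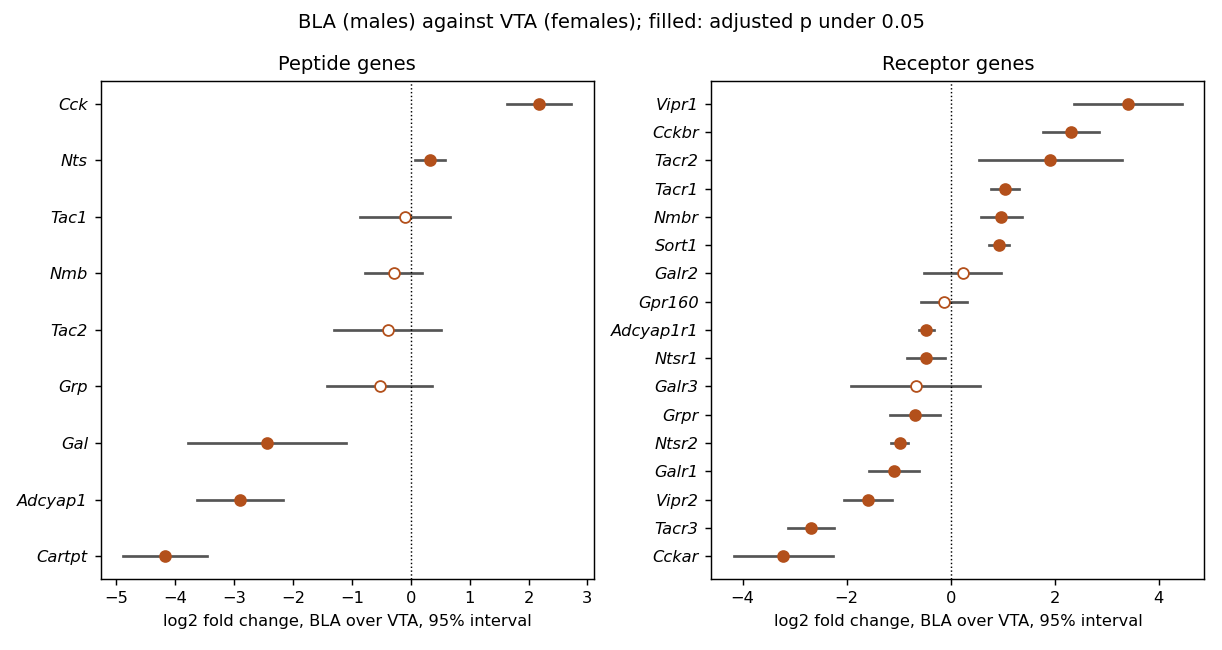
Log2 fold change of BLA (6 libraries, males) over VTA (6 libraries, females) with its unadjusted 95% interval, for the 9 peptide genes and 17 receptor genes, where filled points have an edgeR adjusted p under 0.05. Cck at 2.18 and Cartpt at -4.18 are the ends of the peptide panel, and Vipr1 at 3.40 and Cckar at -3.22 are the ends of the receptor panel, with Cckbr at 2.31.

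The receptors of these peptides differed between the regions as well. Of 17 listed receptor genes, 6 were higher in BLA and 8 higher in VTA among those called, against 23.7% and 24.1% of all genes, with a median log2 fold change of -0.47 against -0.02 for all genes. Sort1, the sorting receptor that also binds neurotensin, was higher in BLA at 0.92 (SE 0.09), and so was Tacr1, the substance P receptor, at 1.04 (SE 0.13). Tacr3, the neurokinin B receptor, was higher in VTA at -2.68 (SE 0.20), as was Ntsr2, a neurotensin receptor of astrocytes, at -0.98 (SE 0.08), with edgeR adjusted p from 1.36e-07 to 7.43e-06 for the 4. Tacr3 lay at 28.4 CPM or more in each VTA library and at most 8.08 CPM in each BLA library. Of 15 genes of precursor processing, 5 were called in each direction, among them Scg2, a secretogranin, at -1.36 (SE 0.09), Qpct, which forms pyroglutamate ends, at -1.27 (SE 0.13), Pam, the amidating enzyme, at -0.80 (SE 0.10) and Pcsk2, a convertase, at 0.75 (SE 0.07). Of 13 genes of vesicle release, 9 were called higher in BLA and 3 higher in VTA, led by Unc13a at 1.62 (SE 0.10), Rims1 at 1.46 (SE 0.12), Ptprn at 0.84 (SE 0.09) and Stx1a at 2.42 (SE 0.23). Of 13 peptidases, 3 were called in each direction, with Thop1 at 0.60 (SE 0.06), Ece2 at -1.39 (SE 0.15), Mmel1 at -1.94 (SE 0.21) and Ace at -1.26 (SE 0.17).

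In VTA, the comparison of isolated with group-housed females asked whether the peptide genes differ with early isolation. Cartpt and Cck were the members with separate groups, both higher in isolated VTA. Cartpt lay at 236 ± 50.0 against 69.5 ± 27.7 CPM (SD, n = 3 each), which is 1.70 on the log2 scale (SE 0.37), or 3.24-fold, with a 95% interval from 0.76 to 2.63. Cck lay at 45.2 ± 21.4 against 21.03 ± 3.73 CPM, a log2 fold change of 1.04 (SE 0.34), or 2.06-fold, with an interval from 0.20 to 1.88. Neither passed the adjustment, with edgeR adjusted p = 0.236 for Cartpt and 0.246 for Cck, and 0 of 9 members were called, against 0.00415% of 24082 genes. An unadjusted p under 0.05 was found at 2 of 9 members, against 18.3% of all genes, and by p Cartpt ranked 449 of 24082. Of the 9 log2 fold changes 6 were above 0, against 49.8% of all genes.

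DESeq2, run on the same counts, called both genes, at 1.70 for Cartpt (DESeq2 adjusted p = 3.7e-06) and 1.05 for Cck (DESeq2 adjusted p = 0.0155), against 2.34% of 20798 genes with an adjusted p (0.712% higher in isolated VTA). limma voom called neither (adjusted p = 0.0875 and 0.0928). The groups were separate at 2 of 9 members, against 30% of all genes, of which 18.9% were higher and 11.1% lower in isolated VTA. Scaled within the 6 VTA libraries the background was 26.1%, with 3037 genes higher and 3258 lower, and the same 2 members were separate. The shares of members with an unadjusted p under 0.05 and with separate groups lie near or below those of all genes. Nothing is read from these shares about the peptide genes as a set.

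The nearest patterns to Cartpt over the 12 libraries were those of Calb2, the calcium-binding protein calretinin, A2m, a protease inhibitor, and Ucn, the urocortin precursor, a peptide gene that marks the Edinger-Westphal nucleus. Likeness is the root-mean-square difference of centred log2 CPM, which was 0.68, 0.80 and 0.83 for these 3, against a median of 2.23 over 16644 genes. It runs over the libraries of both regions, so a difference between BLA and VTA enters it. It does not measure likeness in the housing response alone. Ucn lay at 2.21, 1.93 and 1.26 CPM in group-housed VTA libraries 1, 2 and 3 and at 6.61, 6.97 and 15.9 CPM in isolated ones, so that its groups were separate and library 3 was highest among isolated and lowest among group-housed libraries, as for Cartpt. Calb2 lay at 173, 187 and 190 CPM in group-housed and at 274, 252 and 218 CPM in isolated VTA, with separate groups, and A2m at 10.7, 21.6 and 19.5 against 18.7, 17.9 and 50.9 CPM, with overlapping groups. In BLA, Ucn stayed between 0.417 and 0.876 CPM.

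Markers of neighbouring cell groups varied across the same VTA libraries. The 8 oculomotor and Edinger-Westphal markers, which include Ucn, summed to 10.6 to 36.1 CPM in group-housed and 20.2 to 42.4 CPM in isolated VTA, and these ranges overlapped. In BLA the same sum was 9.82 to 39.9 CPM in group-housed and 15.5 to 84.1 CPM in isolated libraries. A high sum is therefore not particular to VTA and does not identify these cell groups. Of 6 tested, 4 had a log2 fold change above 0, against 49.8% of all genes, with a median of 1.04. The groups were separate and higher in isolated VTA at 3 (Ucn, Chat and Slc5a7), against 18.9% of all genes. An unadjusted p under 0.05 was found at 3, against 18.3%. Ucn is among the genes counted and was already named for its likeness to Cartpt. Chat, the acetylcholine-synthesising enzyme, lay at 1.61, 1.20 and 5.73 CPM in isolated libraries 1, 2 and 3 and at 0.721, 0.849 and 1.12 CPM in group-housed ones. In BLA Chat reached 24.4 CPM and Slc5a7 reached 42.8 CPM, both in isolated library 1. Isl1 and Prph ran the other way in group-housed libraries 1 and 2, at 14.8 and 11.5 CPM for Isl1 and 14.1 and 16.4 CPM for Prph, against at most 4.03 and 9.87 CPM in isolated libraries. Phox2a, a defining factor of oculomotor neurons, had 1 count over the group-housed and 2 counts over the isolated VTA libraries. The log2 fold changes of the hypothalamic markers were below 0 at 11 of 11 tested, the opposite sign to Cartpt. Of all genes 49.8% were above 0. The sums over the 12 hypothalamic markers were 55.6 to 215 CPM in group-housed and 23.01 to 115 CPM in isolated libraries, with no marker at 0 throughout a group. The 10 dopamine neuron markers summed to 832 to 1765 CPM in group-housed and 1152 to 1440 CPM in isolated VTA, and these ranges overlapped. The part of these cell groups in the Cartpt difference was not tested. Cartpt kept a log2 fold change between 1.39 and 1.91 when any VTA library was left out, and lay at 1.58 in isolated library 2 alone against the group-housed libraries, a comparison with a single isolated library.

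Cck varied alongside other genes. Its nearest patterns were Olfm1, a secreted protein of cortical neurons, the predicted gene Gm30371, and Cckbr, the main brain receptor of cholecystokinin, at root-mean-square differences of 0.15, 0.17 and 0.20, against a median of 1.24. This likeness also includes the difference between BLA and VTA. Cckbr lay at 6.01, 5.92 and 7.78 CPM in group-housed and 10.2, 6.85 and 16.9 CPM in isolated VTA, with overlapping groups. Of 12 markers of cortical and basolateral glutamatergic neurons, 11 were above 0 for isolated over group-housed VTA, against 49.8% of all genes. Their sums were 417, 353 and 977 CPM in isolated libraries 1, 2 and 3 and 291 to 315 CPM in group-housed ones. No marker was at 0 throughout a group. Isolated library 3 was the highest VTA library for Cck, Cckbr and this sum. It was also the highest for the central amygdala and intercalated markers, at 563 CPM against at most 252 CPM in the other VTA libraries. The choroid plexus markers were highest there too, at 5345 CPM. Without isolated library 3 the log2 fold change of Cck was 0.59 (edgeR adjusted p = 0.386). Without isolated libraries 1 and 3 it was 0.62, with a single isolated library. The part of these cell groups in the Cck difference was not tested.

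**Figure D3:**
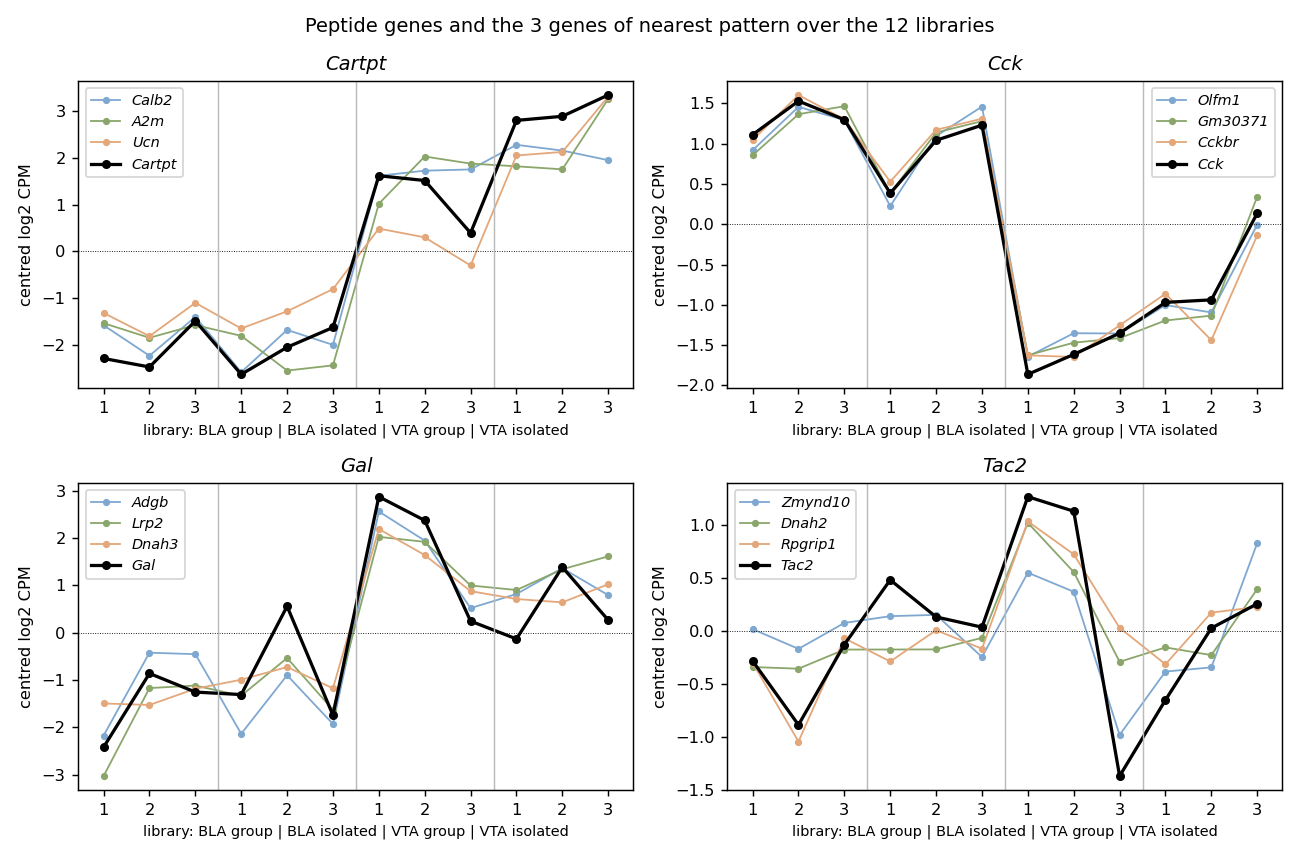
Log2 CPM of Cartpt, Cck, Gal and Tac2 (black) and of the 3 genes nearest to each in pattern (coloured), centred on each gene's mean, over the 12 libraries in 4 groups. Cck and Cckbr are both highest in group-housed BLA library 2, Cartpt and Ucn are both highest in isolated VTA library 3, and Gal and Tac2 are both highest in group-housed VTA libraries 1 and 2.

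Galanin and the tachykinin gene Tac2 were spread within group-housed VTA. Gal lay at 6.82, 4.80 and 1.07 CPM in group-housed libraries 1, 2 and 3 and at 0.815, 2.40 and 1.09 CPM in isolated ones. Tac2 lay at 15.5, 14.1 and 2.46 CPM in group-housed libraries and at 4.08, 6.55 and 7.69 CPM in isolated ones. For both genes group-housed libraries 1 and 2 were the highest and library 3 lay within or below the isolated range, so the groups overlapped. The log2 fold changes were -1.60 for Gal (95% interval -3.42 to 0.23) and -0.87 for Tac2 (-2.67 to 0.93), and neither passed (edgeR adjusted p = 0.311 and 0.526).

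The same 2 libraries were rich in hypothalamic markers, at sums of 189 and 215 CPM against 55.6 CPM in group-housed library 3. Hcrt, the orexin precursor of the lateral hypothalamus, lay at 3.44 and 15.9 CPM in them and at 0.805 CPM in the third. The nearest patterns to Gal were Adgb, Lrp2 and Dnah3, at 0.66, 0.71 and 0.74 against a median of 1.58, and the nearest to Tac2 were Zmynd10, Dnah2 and Rpgrip1, at 0.47, 0.48 and 0.50 against a median of 0.80. Dnah2 and Dnah3 encode dynein heavy chains of motile cilia, and Zmynd10 a factor for assembling such dyneins. Dnah3 lay at 7.52 and 5.13 CPM in group-housed VTA libraries 1 and 2 and at most 3.33 CPM in the other VTA libraries. Because Dnah3 was picked for its likeness to Gal over these same libraries, its levels are no separate information. The likeness to Gal and to Tac2 also includes the difference between BLA and VTA. The part of neighbouring tissue in the levels of Gal and Tac2 was not tested.

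The remaining peptides overlapped between the VTA groups. Adcyap1 lay at 87.3, 111 and 82.6 CPM in group-housed and 97.3, 157 and 69.2 CPM in isolated libraries, with a log2 fold change of 0.14 (95% interval -0.67 to 0.95). Its nearest gene was Slc17a6, the vesicular glutamate transporter of midbrain and hypothalamic neurons, at a root-mean-square difference of 0.22 against a median of 1.55. Tac1 lay at 57.9, 61.8 and 24.7 CPM against 44.5, 53.8 and 55.8 CPM, a log2 fold change of 0.03 (-0.89 to 0.95). Nts had 0.03 (-0.42 to 0.49) and Nmb -0.30 (-0.93 to 0.33). Grp lay at 4.14, 4.85 and 6.04 CPM in group-housed and 5.21, 5.21 and 14.8 CPM in isolated VTA. Its log2 fold change was 0.68 (-0.34 to 1.70), and 0.0016 without isolated library 3.

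Receptor and processing genes were examined beside the peptides in VTA. Of 17 receptor genes 16 were tested, 0 were called by edgeR and 2 had an unadjusted p under 0.05, against 18.3% of all genes. Cckar, the cholecystokinin receptor of some dopamine neurons, lay at 4.03, 6.99 and 6.03 CPM in group-housed and 1.54, 2.97 and 2.79 CPM in isolated VTA, so that its groups were separate in the opposite direction to Cck. Its log2 fold change was -1.27 (SE 0.30, edgeR adjusted p = 0.236), against 0.72 (SE 0.31) for Cckbr, 0.33 (SE 0.13) for Sort1 and -0.69 (SE 0.32) for Galr1, a galanin receptor. The median of the list was -0.13, against -0.0013 for all genes.

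Of 15 processing genes 0 were called by edgeR and 4 had an unadjusted p under 0.05, against 18.3% of all genes, with a median of 0.10. Cpe, carboxypeptidase E, which trims basic residues from cut peptides, lay at 1576, 1638 and 1404 CPM in group-housed and 2123, 2060 and 2105 CPM in isolated VTA, a log2 fold change of 0.38 (SE 0.09, edgeR adjusted p = 0.236). Pcsk2 had 0.32 (SE 0.09), Furin 0.24 (SE 0.10) and Pcsk5 -0.68 (SE 0.27). Of 13 vesicle release genes 12 were above 0, against 49.8% of all genes, with a median of 0.10, and 0 were called and 2 had an unadjusted p under 0.05. The glutamatergic markers, with 11 of 12 above 0 and a median of 1.08, lay on the same side in these libraries, and their part in the release genes was not tested. The log2 fold changes were 0.46 for Snap25 (SE 0.14), 0.22 for Rab3a (SE 0.08), 0.17 for Syt4 (SE 0.08) and 0.63 for Stx1a (SE 0.30). Stx1a lay at 71.3 CPM in isolated library 3 and at 34.1 and 35.9 CPM in isolated libraries 1 and 2. Of 13 peptidases 0 were called. Ece2, an endothelin-converting enzyme of the secretory pathway, had the smallest p of the list, at 11.03, 11.6 and 11.4 CPM in group-housed and 6.34, 7.60 and 4.68 CPM in isolated VTA, a log2 fold change of -0.93 (SE 0.18, edgeR adjusted p = 0.236). Ece1 had -0.27 (SE 0.11), Tpp2 0.16 (SE 0.07) and Nln, neurolysin, 0.20 (SE 0.10).

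In BLA, the same question was asked for males, and Tac2 was the member with separate groups. It lay at 5.27, 3.46 and 5.88 CPM in group-housed libraries 1, 2 and 3 and at 8.99, 7.05 and 6.59 CPM in isolated ones. Group-housed libraries 1 and 2 and isolated library 3 were those rich in ribosomal RNA reads, and group-housed library 2 held 58 counts. By total count without TMM scaling the groups overlapped, at 5.49 CPM in isolated library 3 and 5.96 CPM in group-housed library 3. The log2 fold change of Tac2 was 0.61 (SE 0.21), 1.52-fold, with a 95% interval from 0.15 to 1.07. It did not pass the adjustment (edgeR adjusted p = 1.0, and from 0.922 upwards under the alternatives). Its unadjusted p by edgeR was 0.0139, which ranked 76 of 22110 genes, and the rank is not read as evidence of a difference. Of the 9 members 0 were called by edgeR, DESeq2 or limma voom, against 0% of all genes by edgeR and 0.0271% by DESeq2. At an unadjusted p under 0.05 there was 1 member, against 1.99% of all genes, and groups were separate at 1 of 9, against 6.99% (4.3% higher and 2.69% lower in isolated BLA). Of the 9 log2 fold changes 4 were above 0, against 50.8% of all genes.

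**Figure D4:**
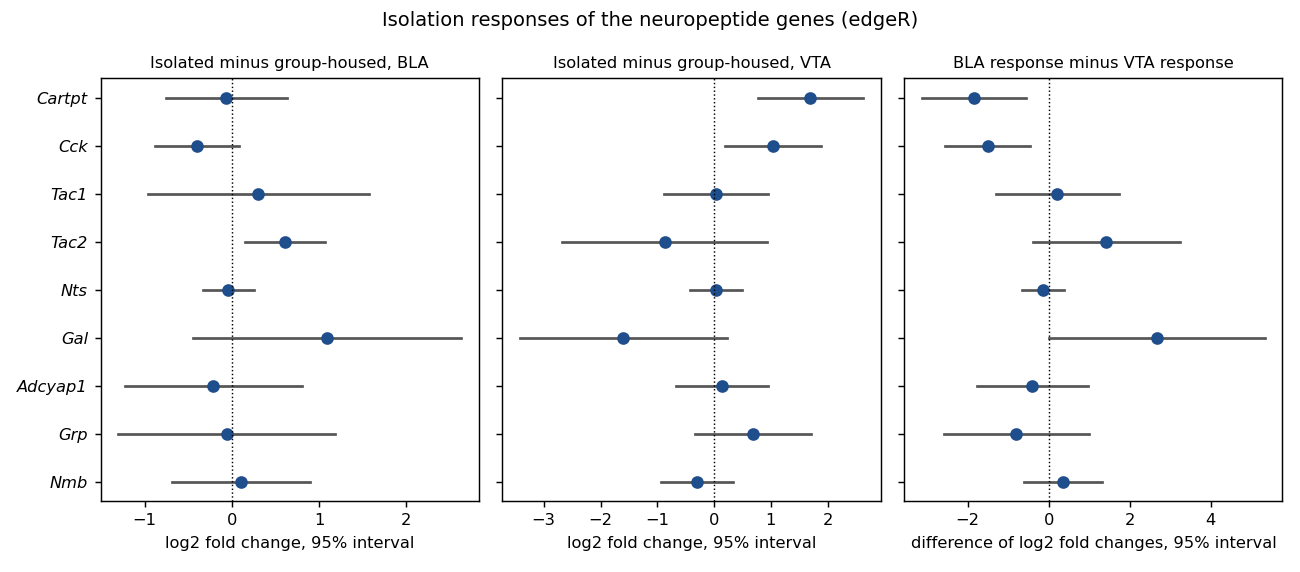
Log2 fold change of isolated over group-housed libraries in BLA and in VTA (3 against 3 each), and the BLA response minus the VTA response (12 libraries), with unadjusted 95% intervals from edgeR. The intervals of Cartpt and Cck lie above 0 in VTA, at 1.70 and 1.04, and below 0 for the difference, at -1.84 and -1.50, while no value passed the adjustment over all genes.

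Cck and Tac1 varied between BLA libraries along with markers of neighbouring neurons. Cck lay at 159 ± 23.2 CPM in group-housed and 121 ± 34.2 CPM in isolated BLA (SD, n = 3), a log2 fold change of -0.40 (95% interval -0.88 to 0.08), with isolated library 1 the lowest at 83.1 CPM. The glutamatergic markers were lowest in the same library, at a sum of 1426 CPM against 2120 CPM or more in the other BLA libraries. In the comparison 11 of 12 were below 0, where 50.8% of all genes were above 0. Without isolated library 1 the value for Cck was -0.19.

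Tac1 lay at 59.7, 39.3 and 26.2 CPM in group-housed BLA and 78.3, 48.8 and 27.4 CPM in isolated BLA, a log2 fold change of 0.31 (95% interval -0.96 to 1.58). The 12 markers of central amygdala, intercalated and striatal neurons placed the 6 BLA libraries in the same order as Tac1, with sums of 1190, 917 and 549 CPM in group-housed and 1651, 948 and 705 CPM in isolated libraries. Of them 9 were above 0, against 50.8% of all genes, and none was at 0 throughout a group. The part of these neurons in the levels of Tac1 was not tested. Without isolated library 1 the Tac1 value turned to -0.13, and with the 3 BLA libraries high in ribosomal RNA reads omitted it was 1.28, against a single group-housed library.

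The other members overlapped between the BLA groups. Log2 fold changes were -0.06 for Cartpt (95% interval -0.75 to 0.63), -0.04 for Nts (-0.33 to 0.25), -0.21 for Adcyap1 (-1.23 to 0.80), -0.06 for Grp (-1.31 to 1.19), 0.11 for Nmb (-0.68 to 0.90) and 1.09 for Gal (-0.45 to 2.63). With the 3 BLA libraries high in ribosomal RNA reads omitted, the value was -0.83 for Cartpt and -0.91 for Adcyap1, against a single group-housed library. Nts lay within 17.4 to 17.6 CPM in group-housed and 14.99 to 20.4 CPM in isolated BLA. The value for Gal rested on isolated library 2, which held 82 counts (1.34 CPM) against 8 and 18 counts in the other isolated and 5 to 20 counts in the group-housed libraries, and without it the value was -0.07. Grp was lowest in isolated library 1, at 1.38 CPM, and highest in isolated library 2, at 7.15 CPM.

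No pathway gene passed in BLA either. edgeR called 0 of 16 receptor, 15 processing, 13 release and 13 peptidase genes tested, and 0 had an unadjusted p under 0.05. The medians were -0.05, -0.05, -0.10 and 0.02, against 0.0028 for all genes. Grpr, the receptor of gastrin-releasing peptide, had the smallest p of the receptors at -0.49 (SE 0.33), followed by Cckbr at -0.30 (SE 0.22), Ntsr1 at 0.20 (SE 0.17) and Cckar at 0.94 (SE 0.79). Among processing genes these were Cpd at -0.15 (SE 0.11), Pcsk1 at -0.23 (SE 0.23), Chgb at -0.20 (SE 0.23) and Vgf at -0.09 (SE 0.11). Among release genes they were Syt10 at -0.13 (SE 0.11), Snap25 at -0.17 (SE 0.15) and Ptprn2 at -0.15 (SE 0.13). Thop1, a peptidase that cuts neurotensin, was separate between the groups and lower in isolated BLA, at -0.19 (SE 0.09, edgeR adjusted p = 1.0), and Mme, neprilysin, which cuts tachykinins, had 0.61 (SE 0.48), Ace 0.19 (SE 0.15) and Tpp2 -0.07 (SE 0.09).

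Whether the housing response differs between BLA and VTA was tested with an interaction term on the 12 libraries, given as the BLA value minus the VTA value. It was -1.84 (SE 0.57) for Cartpt, -1.50 (SE 0.46) for Cck and 2.67 (SE 1.20) for Gal, and these 3 of 9 members had an unadjusted p under 0.05, against 14.9% of all genes. None passed the adjustment by edgeR (adjusted p = 0.303, 0.303 and 0.334), where 0% of 25009 genes were called. Differences above 0 were found at 4 of 9 members, against 44.7% of all genes. DESeq2 called 0.599% of genes (0.473% above 0) and 1 of the 9 members, Cck, at -1.48 (DESeq2 adjusted p = 0.0357). The other members lay from -0.80 for Grp (95% interval -2.59 to 0.99) to 1.42 for Tac2 (-0.39 to 3.23), and all their intervals included 0. In the pathway lists edgeR called 0 genes, with Sort1 at -0.47 (SE 0.18), Cckar at 2.11 (SE 0.86), Cckbr at -1.08 (SE 0.46) and Vipr1, a receptor that PACAP also binds, at -1.77 (SE 0.86) among the receptors. Of the other lists Cpe lay at -0.49 (SE 0.13), Pcsk2 at -0.41 (SE 0.15), Cpd at -0.35 (SE 0.16), Pcsk5 at 0.71 (SE 0.36), Snap25 at -0.69 (SE 0.22), Rab3a at -0.38 (SE 0.15), Stx1a at -0.91 (SE 0.45), Ece2 at 0.99 (SE 0.29), Thop1 at -0.36 (SE 0.13), Tpp2 at -0.29 (SE 0.12) and Ece1 at 0.29 (SE 0.15).

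The other members also had near patterns, given here as a description of the 12 libraries. The nearest to Tac1 were Stk32a, Dmkn and Ankdd1a, at root-mean-square differences of 0.29, 0.34 and 0.34 against a median of 0.59. Those to Nts were Qsox2, the astrocyte glutamate transporter gene Slc1a3, and Ints6, at 0.13, 0.14 and 0.15 against 0.39. Those to Nmb were Gm43012, Gm6566 and the GABA-A receptor subunit gene Gabrg1, at 0.17, 0.18 and 0.19 against 0.45. For Grp they were Trhr, the receptor of thyrotropin-releasing hormone, Pla2g5 and Cdkn1c, at 0.41, 0.46 and 0.46 against 0.77, and for Adcyap1, after Slc17a6, the long noncoding RNA Crnde and the synapse organiser gene Cbln1, at 0.41 and 0.43.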

How the data were processed

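RNA from brain punches was extracted with Trizol and made into stranded libraries after depletion of ribosomal RNA, per the labels' protocols. The authors deposited unnormalized counts of reads per gene. Their processing notes list cutadapt, TopHat2, HTSeq and mm10, with no versions, and the sources used here give neither the strand setting nor the annotation. The per-sample tables were used. They differ from the series table at 2 entries, none of them a member. All replicate pairs differed by more than sampling noise (lowest chi-square over its degrees of freedom, 20.8).

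The quasi-likelihood F test of edgeR 4.0.16 (R 4.3.3) was run after filterByExpr at its settings of 10 counts and a total of 15, with TMM factors. It used 6 libraries for housing within a region, and 12 for the difference of responses and for the regions, the latter averaged over housing. Calls are at 0.05 after Benjamini-Hochberg adjustment across every gene of the fit. Fold changes are isolated over group-housed or BLA over VTA. Log2 CPM for likeness used a prior count of 2 and genes of at least 1 CPM. Named genes were the members, the 4 of smallest p per pathway list and comparison, and the 3 of nearest pattern, apart from genes that are not reported here. Ucn, Slc6a3 and other single markers come from the marker lists. The members and lists were chosen with earlier results of these data known. Alternatives were DESeq2 1.42.0, limma 3.58.1 voom, RLE and upper-quartile factors, other filters, a replicate block, 1 fit of 12 libraries, removal of ribosomal loci and leaving out libraries. The scripts were tested on simulated counts. No protein sequences were used here. Figures were drawn with matplotlib 3.10.9.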

Additional observations from a re-analysis of the deposited data

How the results depend on the processing

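The number of members called was 0 in BLA under each alternative. In VTA it was 0 except with DESeq2 (2), for the difference of responses 0 except with DESeq2 (1), and between the regions from 4 to 5 except without the 3 BLA libraries rich in ribosomal RNA reads (3). Genes called in BLA (0) became 6 with DESeq2, 8 without the filter and 1 without those 3 libraries, and 0 to 4 when each library was left out. In VTA (1) they became 486 with DESeq2, 2 with voom, 17 without the filter, and 0 with upper-quartile factors, with the replicate block and without isolated libraries 1 and 3, the last chosen after seeing the data. Leaving out each library gave 0 to 1200, the highest without isolated library 2. For the difference (0) they became 138 with DESeq2, and 1 without the filter, with the replicate block and at a threshold of 0.1, and 0 to 487 when each library was left out, the highest again without isolated VTA library 2. Of the same-numbered pairs, BLA libraries 1 deviated together (r = 0.37) and the other 5 did not (r from -0.11 to 0.02), so the numbers were not taken to pair the samples. Under the block no member changed its call (Cartpt 1.76 and Cck 0.96 in VTA).

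Signs turned at members that missed the threshold, and the cause was not tested. In BLA, voom gave -0.0105 for Tac1, 0.0085 for Adcyap1, 0.0342 for Grp and -0.10 for Nmb, and Nts was 0.0536 without the 3 libraries. Leaving out each BLA library gave -0.32 to 0.32 for Cartpt, -0.13 to 0.65 for Tac1, -0.19 to 0.0337 for Nts, -0.0717 to 1.44 for Gal, -0.45 to 0.19 for Adcyap1, -0.64 to 0.37 for Grp and -0.22 to 0.32 for Nmb. In VTA, Tac1 was -0.15 with voom and -0.0468 with upper-quartile factors, Nts -0.10 and -0.0377, and Adcyap1 -0.0529 with voom, and the ranges over left-out libraries were -0.30 to 0.24, -0.17 to 0.20 and -0.25 to 0.39. For the difference, Nts was 0.0704 with voom, 0.0044 with upper-quartile factors and 0.0301 without the 3 libraries, and Adcyap1 0.0067 with voom, with ranges of -0.31 to 0.0623 for Nts and -0.21 to 0.57 for Tac1. Between the regions Tac1 ran from -0.31 to 0.0591. Counts of 5 to 20 for Gal in several BLA libraries, and of 12 to 108 for Nmb, limit their precision.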
